A study of Mus musculus with 6 samples.

Results

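Integrins are adhesion receptors built from 1 alpha and 1 beta subunit, and the 10 genes described here encode the subunits Itga6, Itga4, Itgav, Itgam and Itgal (alpha) and Itgb1, Itgb2, Itgb3, Itgb5 and Itgb7 (beta). They were taken by symbol from the array annotation, and 29 of the 45101 probe sets, each annotated with 1 symbol, belong to them, out of 18194 genes with such a probe set. The subunits are described across resident macrophages of the peritoneal cavity, recovered by lavage and sorted for high CD11b with little or no MHC class II. Of the 6 arrays, 3 hold pools from 7-week-old mice with a conditional (floxed) deletion of Gata6, labelled Gata6-KO, and they were set against 3 arrays with pools from 7-week-old wild type mice, labelled Gata6-WT. Each pool combined 2 to 3 sex-matched mice and was measured on 1 array. Which Cre driver was used, and which exon it removes, is not given in the sources used here, so it is unknown whether the Gata6 probe sets lie in the removed stretch. CD11b is the protein of Itgam, so the level of Itgam was in part set by the sort in both genotypes.

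An integrin reaches the cell surface as a pair, and the partner of a subunit decides which ligands the cell can bind. The alpha-beta head holds matrix proteins or counter-receptors on other cells, while the short beta tail recruits talin and kindlin, which switch the receptor on and tie it to actin. In macrophages the Itgb2 integrins bind complement fragments and ICAMs, the Itgb1 integrins bind laminin and fibronectin, and the Itgav integrins bind vitronectin, latent TGF-beta and the bridging protein MFG-E8 on apoptotic cells.

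The signals are MAS5 probe set intensities on a linear scale, with array medians of 79.7 to 88.5, and differences are on the log2(signal + 16) scale, Gata6-KO minus Gata6-WT. Of the 3 Gata6 probe sets, that with the highest signal had 4452, 3040 and 2998 in Gata6-KO pools, against 6433, 5405 and 7279 in Gata6-WT pools (log2 -0.88 ± 0.17 SE, limma adjusted p = 0.011). Another had 184, 173 and 183 in Gata6-KO, against 337, 449 and 483 in Gata6-WT (adjusted p = 0.0043), and the last did not pass (log2 -0.01, adjusted p = 0.98). Xist was at most 113 in replicate 1 of either genotype (called male-type here) and at least 11158 in replicates 2 and 3 (called female-type). The macrophage genes Csf1r (54074 to 63302 in Gata6-KO, 46856 to 61207 in Gata6-WT) and Lyz2 (65765 to 79354 and 60996 to 84137) were high on all arrays. Of 8 measured macrophage markers 3 were lower, Adgre1, Cd68 and Fcgr1, and 1 was higher, Mertk. Of 6 markers of large resident peritoneal macrophages 5 were lower, with summed signals of 117473 to 123517 in Gata6-KO and 185749 to 237218 in Gata6-WT. The 5 include Gata6, the deleted gene itself, and Prg4 did not pass (log2 -0.32, limma adjusted p = 0.12). Over all tested genes 7.46% were lower and 5.61% higher. The summed signals of 7 neutrophil markers were 465 to 868 in Gata6-KO and 991 to 1702 in Gata6-WT, most of it S100a8 (293 to 664 in Gata6-KO, 847 to 1484 in Gata6-WT), while S100a9 was at 26.8 or less on every array, and their part in the differences described here was not tested. In these bulk samples a lower share of cells that express a gene and less RNA per cell cannot be told apart.

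Of the 10 integrin genes, 5 were lower in Gata6-KO macrophages, namely Itgb3, Itga6, Itgb7, Itgb1 and Itgb2, and 0 were higher. The other genes, Itga4, Itgav, Itgam, Itgal and Itgb5, did not pass the threshold (limma, adjusted p under 0.05 over all 27022 tested probe sets). For comparison, 7.46% of the 12511 tested genes were lower and 5.61% higher, 13.1% in all. The 10 genes were chosen with earlier results of these data known, so this contrast is a description and not a test. By chain, 1 of 5 alpha and 4 of 5 beta genes were lower. In the 5 that passed, every Gata6-KO array lay below every Gata6-WT array, which held for 19.4% of all tested genes (every Gata6-KO array lay above every Gata6-WT array in 15%), and in the other 5 the groups overlapped. The median log2 difference was -0.47 over the 10 genes and -0.04 over all tested genes. At an unadjusted p under 0.05 the counts were also 5 lower and 0 higher, where 27.8% of all tested genes passed in either direction. The probe set that stands for a gene is its brightest tested one. Over all 29 probe sets, 20 passed the filter on low signals (a mean log2(signal + 16) above 5.99, which a steady signal of 47.5 would give), of which 7 were lower and 0 higher, where 5.67% of all tested probe sets were lower and 5.12% higher, 10.8% in all. Of these 20, 1 passed the filter through its Gata6-WT level alone (Itgb3) and 2 through their Gata6-KO level alone (the dimmer tested probe sets of Itgav and Itgb5), so their selection is tied to the direction of their difference.

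**Figure D1:**
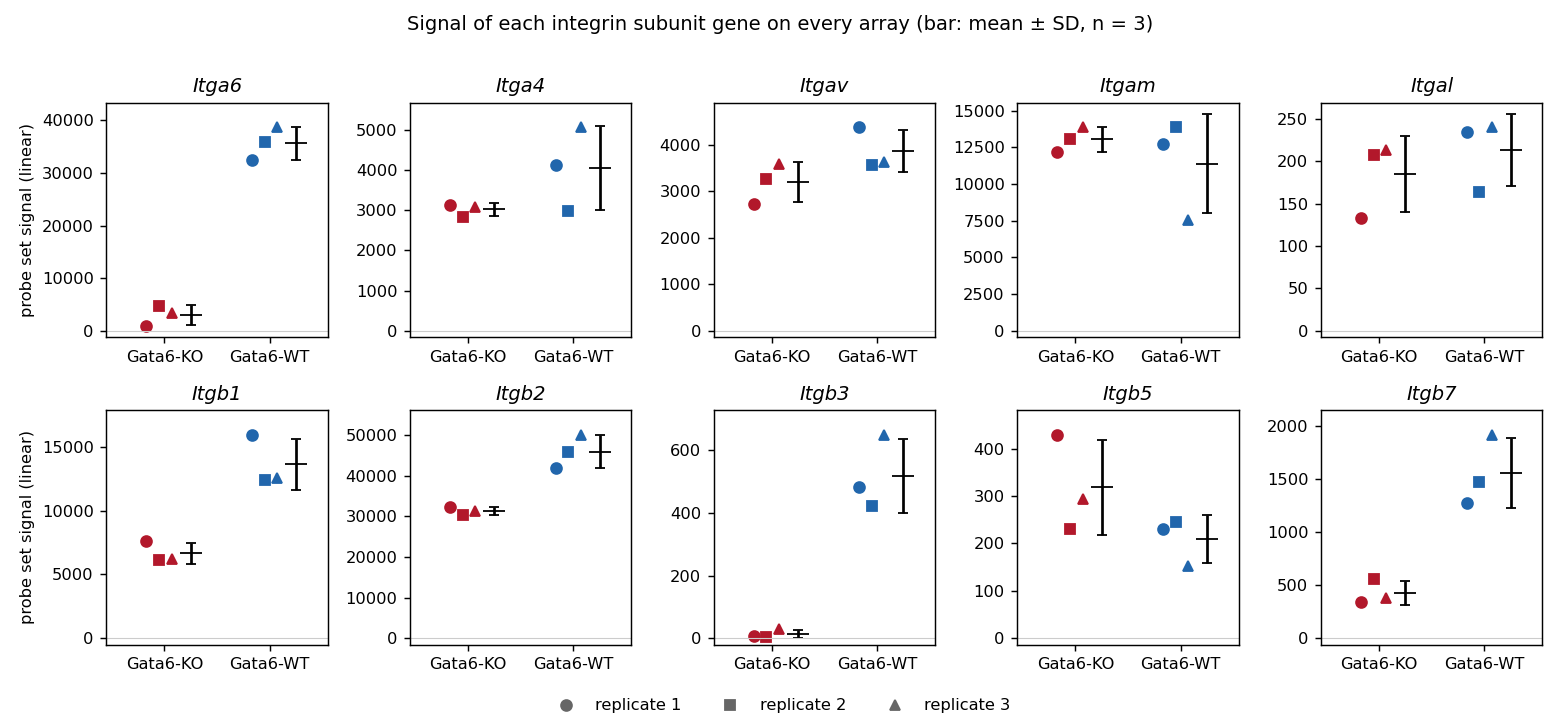
Linear probe set signal of each of the 10 integrin genes on the 6 arrays, Gata6-KO (red) left of Gata6-WT (blue), with replicates 1, 2 and 3 as circle, square and triangle and black bars for mean ± SD (n = 3); each panel has its own axis. Itga6 and Itgb3 show the widest gaps, Itgb1, Itgb2 and Itgb7 are lower in Gata6-KO without overlap, and the groups overlap in the other 5 panels.

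Itga6, which pairs with Itgb1 or Itgb4 to form laminin receptors, fell at both of its probe sets. The brighter one had signals of 896, 4705 and 3324 in Gata6-KO replicates 1, 2 and 3, against 32425, 35917 and 38698 in Gata6-WT. All Gata6-KO arrays were low, and replicate 1 was the lowest of them. The means were 2975 ± 1928 in Gata6-KO and 35680 ± 3144 in Gata6-WT (SD, n = 3 each), a 14.6-fold fall (log2 -3.87 ± 0.48 SE, limma adjusted p = 0.00096). The dimmer probe set had 161, 1246 and 935 in Gata6-KO, against 16479, 16710 and 18112 in Gata6-WT (log2 -4.84, adjusted p = 0.00082). Both probe sets thus gave the same order of the 3 Gata6-KO pools, with 2.51%, 13.2% and 9.32% of the wild type mean left at the brighter one. Without Gata6-KO replicate 1 the fall was 8.97-fold (log2 -3.16). In the female-type arrays (2 against 2) the difference was -3.23, and in the male-type arrays (1 against 1) it was -5.15. The interaction of sex type and genotype had an adjusted p of 0.56 in limma (unadjusted 0.00029) at this probe set and 0.24 (unadjusted 3.8e-05) at the other, and it rests on 1 male-type array per genotype.

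Itgb1 encodes the common partner of Itga6, Itga4 and Itgav and of most matrix-binding alpha subunits. It had 7613, 6159 and 6189 in Gata6-KO pools, against 15917, 12353 and 12560 in Gata6-WT pools. The 3 Gata6-KO arrays were close to each other and all below the wild type ones. The means were 6654 ± 831 in Gata6-KO and 13610 ± 2001 in Gata6-WT (2.04-fold lower, log2 -1.03 ± 0.13, limma adjusted p = 0.0013). A second bright probe set also fell (5221, 4742 and 4783 in Gata6-KO, against 10662, 8866 and 7267 in Gata6-WT; log2 -0.84, adjusted p = 0.0049). Of the other 4 Itgb1 probe sets, 3 were tested and did not pass, with log2 differences from -0.49 to -0.13, and 1 lay below the filter with signals of 3.02 to 32.3. With the mean of its 5 tested probe sets in place of the brightest, Itgb1 had a log2 difference of -0.57 and an adjusted p of 0.054. Its difference was nearly equal by sex type, at -1.01 in female-type and -1.06 in male-type arrays.

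Itga4, which with Itgb1 binds VCAM-1 and fibronectin and with Itgb7 binds MAdCAM-1, did not pass the threshold at any of its 4 tested probe sets. The brightest had 3134, 2837 and 3086 in Gata6-KO pools, against 4125, 2976 and 5061 in Gata6-WT pools (log2 -0.39, 95% interval -0.78 to 0.0011, limma adjusted p = 0.20). Gata6-WT replicate 2 lay within the Gata6-KO range, so the groups overlapped, and without that array the difference was -0.60 with an adjusted p of 0.040. The other tested probe sets ran from -0.30 to 0.28, so the Itga4 probe sets did not share a direction. The fifth had signals of 4.73 to 45.4 and was not tested.

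Itgb7, the beta subunit that pairs with Itga4 or Itgae, fell at its single probe set. Signals were 347, 559 and 381 in Gata6-KO pools, against 1275, 1473 and 1917 in Gata6-WT pools. The highest Gata6-KO array thus stayed well below the lowest Gata6-WT array. The means were 429 ± 114 in Gata6-KO and 1555 ± 329 in Gata6-WT (3.56-fold lower, log2 -1.83 ± 0.21, limma adjusted p = 0.00059), and the difference was -1.83 in both the female-type and the male-type arrays. Itgae was just above the filter, with 51.2, 23.8 and 47.7 in Gata6-KO and 76.3, 94.2 and 84.9 in Gata6-WT (log2 -0.86, adjusted p = 0.15), and it passed the filter through its Gata6-WT level alone. Mast cells and lymphocytes also carry Itgb7. The 8 measured mast cell markers had summed signals of 577 to 620 in Gata6-KO and 696 to 806 in Gata6-WT. Of the 8, 3 were tested and 0 passed. These were Cpa3 (log2 -0.78, limma adjusted p = 0.051), Cma1 (-1.31, adjusted p = 0.083) and Gata2 (0.24, adjusted p = 0.63). Fcer1a and Ms4a2 were at 41.4 or less on every array. The 5 T cell markers summed to 153 to 251 in Gata6-KO and 217 to 341 in Gata6-WT, and the 5 B cell markers to 282 to 441 and 348 to 620. In the other direction, the 4 measured NK cell markers summed to 206 to 261 in Gata6-KO and 134 to 240 in Gata6-WT. The 7 dendritic cell markers, Itgae among them, summed to 396 to 727 in Gata6-KO and 668 to 1367 in Gata6-WT. Of these, 4 were tested and 1 was lower, Cd209a (log2 -2.17, limma adjusted p = 0.010). Over all tested genes 7.46% were lower and 5.61% higher. The part of any of these cells in the Itgb7 difference was not tested.

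Promoter windows (250 bases before to 50 after an annotated start, RefSeq, GRCm38.p6) were at hand for Itga4, Itgav, Itgam, Itgb1, Itgb5 and Itgb7, 6 of the 10 genes. They were searched on both strands for the GATA core spelled AGATAA, as well as in the form AGATAG, and with a leading T in the form TGATAA, as well as in the form TGATAG, whose matches can share letters with one another. Of the 6 windows 1 held a match, that of Itgb7, and 29.8% of all 32851 windows held at least 1. The windows of Itgb7 and Itgb1 are shown because both genes fell; capitals mark the match, which begins 64 bases before the Itgb7 start and reads as AGATAG on the opposite strand. A match is a description of the letters, and no match says nothing about binding.
Itgb7 promoter, chr15:102231886-102232185, minus strand: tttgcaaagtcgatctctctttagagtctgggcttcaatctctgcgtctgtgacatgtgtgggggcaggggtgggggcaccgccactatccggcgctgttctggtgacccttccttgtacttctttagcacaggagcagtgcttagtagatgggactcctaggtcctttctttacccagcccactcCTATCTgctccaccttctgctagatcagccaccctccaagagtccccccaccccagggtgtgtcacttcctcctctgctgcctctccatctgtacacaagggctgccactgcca
Itgb1 promoter, chr8:128685404-128685703, plus strand: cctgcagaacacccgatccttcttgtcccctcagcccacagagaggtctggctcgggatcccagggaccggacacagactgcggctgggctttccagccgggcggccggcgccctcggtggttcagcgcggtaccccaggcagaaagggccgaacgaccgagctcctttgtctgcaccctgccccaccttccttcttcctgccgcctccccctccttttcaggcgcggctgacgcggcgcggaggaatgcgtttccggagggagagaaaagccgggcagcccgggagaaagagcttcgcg

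Itgav, the alpha subunit of the vitronectin receptors, did not pass at either of its 2 tested probe sets. The brighter one had 2733, 3273 and 3588 in Gata6-KO pools, against 4379, 3570 and 3628 in Gata6-WT pools (log2 -0.27 ± 0.13, 95% interval -0.58 to 0.030, limma adjusted p = 0.25). The groups overlapped, and a fall of more than 0.58 on the log2 scale lies outside the interval. The dimmer one had 95.5, 47.4 and 94.5 in Gata6-KO and 65.7, 16.1 and 25.4 in Gata6-WT (log2 0.95, adjusted p = 0.23), and 3 more had signals of 1.89 to 65.6 and were not tested. In the female-type arrays the brighter probe set had a difference of -0.07 and in the male-type arrays -0.68.

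Itgb3, which with Itgav forms the vitronectin receptor and with Itga2b the fibrinogen receptor of platelets, fell at its 1 tested probe set. Signals were 8.45, 5.70 and 30.2 in Gata6-KO pools, against 482, 423 and 648 in Gata6-WT pools. All 3 Gata6-KO values were under the filter level, so the signal in Gata6-KO was at the low end of what these arrays resolve. The means were 14.8 ± 13.4 in Gata6-KO and 518 ± 117 in Gata6-WT (log2 -4.18 ± 0.34, limma adjusted p = 8.6e-05). The size of this fall depends on the pseudocount, with log2 -5.35 at a pseudocount of 1 and -2.88 at 64. A second Itgb3 probe set was dim in both genotypes, at 39.8, 4.29 and 7.90 in Gata6-KO and 38.6, 12.1 and 16.6 in Gata6-WT, and was not tested. The difference at the tested probe set was -4.09 in female-type and -4.35 in male-type arrays. Itga2b did not pass (247, 318 and 377 in Gata6-KO, 385, 355 and 315 in Gata6-WT; log2 -0.17, adjusted p = 0.64). Of 9 measured platelet markers 7 were tested and 1 was lower, Clec1b (52.3 to 100 in Gata6-KO, 401 to 965 in Gata6-WT), where 7.46% of all tested genes were lower. The summed signals of the 9 markers, which are mostly Pf4, were 36952 to 47011 in Gata6-KO and 39520 to 52403 in Gata6-WT. The platelet genes Ppbp and Gp9 were at 58.4 or less on every array.

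Itgb5, the alternative partner of Itgav for vitronectin and MFG-E8, was the 1 beta gene of the 10 integrin genes with a difference above 0. Its brightest probe set had 429, 231 and 294 in Gata6-KO pools, against 230, 245 and 152 in Gata6-WT pools. The groups overlapped, with Gata6-KO replicate 2 inside the wild type range, and the difference did not pass (log2 0.55 ± 0.26, 95% interval -0.03 to 1.14, limma adjusted p = 0.23). A second tested probe set had 120, 56.5 and 125 in Gata6-KO and 84.3, 4.42 and 15.2 in Gata6-WT (log2 1.48 ± 0.59, adjusted p = 0.15, unadjusted 0.031). The other 2 Itgb5 probe sets had signals of 4.14 to 91.2 and were not tested.

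Itgb2, the beta subunit shared by the leukocyte integrins, fell by less than the other genes that passed. Signals were 32367, 30389 and 31237 in Gata6-KO pools, against 41794, 45893 and 50051 in Gata6-WT pools. Both groups were tight and did not overlap. The means were 31331 ± 993 in Gata6-KO and 45912 ± 4129 in Gata6-WT (1.46-fold lower, log2 -0.55 ± 0.10, limma adjusted p = 0.0095). With Gata6-KO replicate 2 left out the call was lost (log2 -0.53, adjusted p = 0.0505) and in a fit with no mean-variance trend (adjusted p = 0.072). Within sex types the difference was -0.64 in female-type and -0.37 in male-type arrays.

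The alpha partners of Itgb2 did not pass the threshold, with intervals that include falls of the size seen for Itgb2 only in the case of Itgal. Itgam, the alpha subunit of complement receptor Mac-1 and the gate of the sort, had 12163, 13080 and 13861 in Gata6-KO pools, against 12757, 13854 and 7567 in Gata6-WT pools (log2 0.24 ± 0.20, 95% interval -0.21 to 0.69, limma adjusted p = 0.51). Gata6-WT replicate 3 was lower than the other 5 arrays, and without it the difference was -0.03. Itgal, the alpha subunit of the ICAM receptor LFA-1, had 133, 208 and 213 in Gata6-KO pools, against 235, 164 and 240 in Gata6-WT pools (log2 -0.20 ± 0.24, 95% interval -0.75 to 0.35, adjusted p = 0.67). Its second probe set had signals of 11.7 to 101 and was not tested. Itgax, which also pairs with Itgb2 and is the coding gene next to Itgam in RefSeq, was near the filter, at 76.3, 72.1 and 62.4 in Gata6-KO and 57.4, 58.8 and 72.3 in Gata6-WT (log2 0.13, adjusted p = 0.83).

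**Figure D2:**
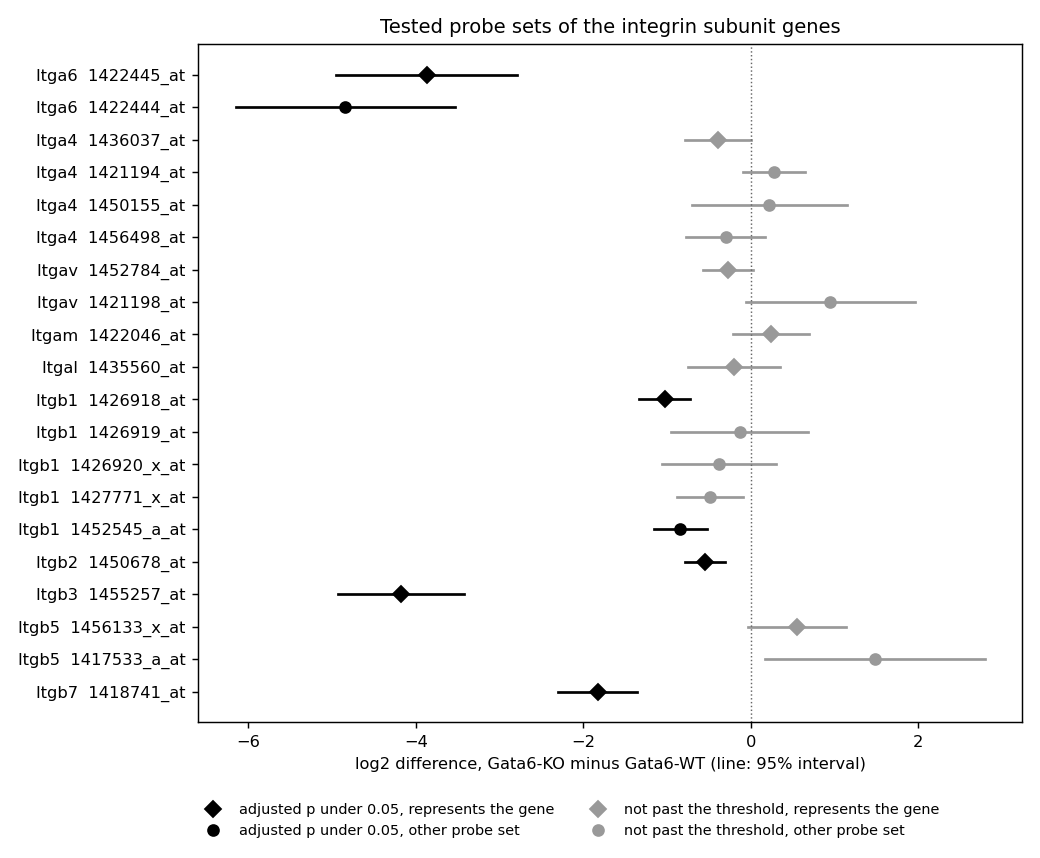
Log2 difference, Gata6-KO minus Gata6-WT, of the 20 tested probe sets of the integrin genes (diamonds: the probe set that represents the gene; black: adjusted p under 0.05), with lines for 95% intervals of the limma fit. Both Itga6 probe sets lie at -3.87 and -4.84 and that of Itgb3 at -4.18, while the intervals of the Itga4, Itgav, Itgam and Itgal probe sets include 0.

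Within known alpha-beta pairs, the change of the alpha gene was set against that of its beta gene. For each of 8 pairs the log2 alpha minus log2 beta signal was formed on each array and its mean compared between genotypes, which sets 2 changes and not 2 levels against each other (exact two-sided permutation test over 6 arrays, whose smallest p is 0.1, with Benjamini-Hochberg adjustment over the 8 pairs). No pair can therefore reach 0.05. Each value below is the alpha change minus the beta change. In 7 of the 8 pairs the Gata6-KO and Gata6-WT arrays did not overlap (exact p = 0.1, adjusted 0.11), and in Itgal/Itgb2 they did (exact p = 0.3). All of these 7 except Itgav/Itgb5 hold a subunit that was lower by itself, so the count in part restates the single-gene calls. For single genes, all Gata6-KO signals lay below all Gata6-WT signals in 19.4% of tested genes and above them in 15%. The share over all gene pairs was not computed, and the single-gene shares do not stand in for it. The count of 7 is therefore only a description.

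Itga6/Itgb1 stood at -2.84, with the Gata6-KO arrays at -4.46, -1.78 and -2.29 and the Gata6-WT arrays at -0.37, 0.14 and 0.23 around the wild type mean. The pairs of Itgb1 with subunits that did not pass lay on the other side of 0, at 0.64 for Itga4/Itgb1 and 0.76 for Itgav/Itgb1. The gap was narrow for Itga4/Itgb1, with the lowest Gata6-KO array at 0.49 and Gata6-WT replicate 3 at 0.46. Itgav/Itgb3 stood at 3.91, a size that depends on the pseudocount (5.07 at 1 and 2.61 at 64) because Itgb3 was under the filter level on every Gata6-KO array. At the pseudocount of 16 the values were 3.94, 4.37 and 3.41 on the Gata6-KO arrays and 0.27, 0.15 and -0.42 on the Gata6-WT arrays. The same alpha gene gave -0.83 with Itgb5, with -1.50, -0.39 and -0.59 on the Gata6-KO arrays and 0.03, -0.35 and 0.32 on the Gata6-WT arrays, a narrow gap. The pairs of Itgav with Itgb3 and with Itgb5 thus lay on opposite sides of 0. For Itga4/Itgb7 the value was 1.44, for Itgam/Itgb2 0.79 and for Itgal/Itgb2 0.35. The Gata6-WT arrays of Itgam/Itgb2 stood at 0.34, 0.33 and -0.67, and its value ran from 0.45 to 0.96 with 1 array left out. The pairs share subunits, so these 8 values are not independent.

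**Figure D3:**
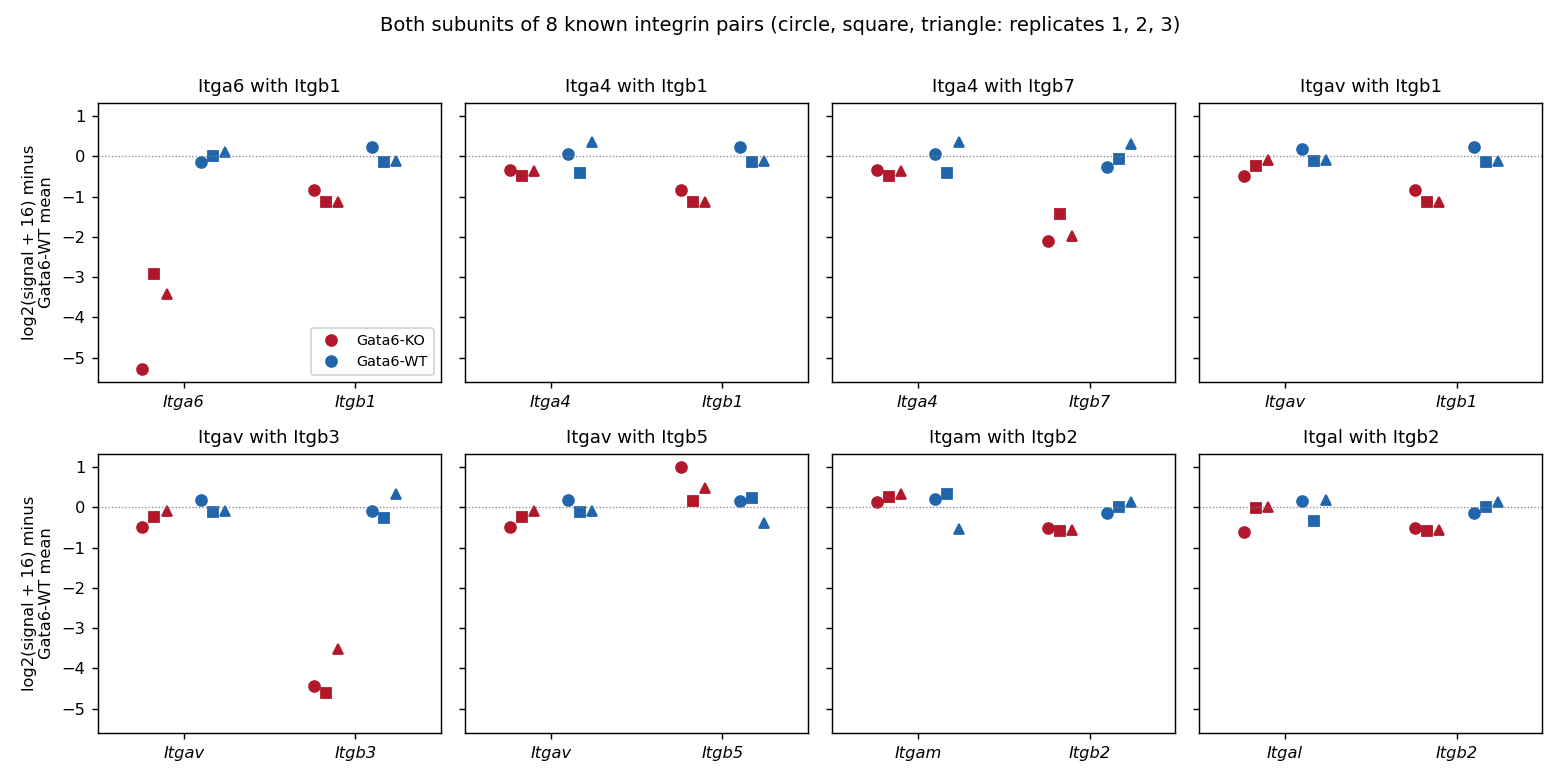
Log2(signal + 16) of both subunits of 8 integrin pairs on each array, each subunit centred on its own Gata6-WT mean. Gata6-KO arrays are red and Gata6-WT arrays blue, with replicates 1, 2 and 3 as circle, square and triangle. At the pseudocount of 16 the Gata6-KO arrays average -4.18 for Itgb3 and -0.27 for Itgav. The Itgb3 value depends on the pseudocount (-5.35 at 1 and -2.88 at 64). For Itga6 and Itgb1 the Gata6-KO arrays average -3.87 and -1.03. The groups overlap for Itgal and not for Itgb2.

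Other integrin subunits did not pass the threshold in limma, which 13.1% of all tested genes passed in either direction. Of 16 listed, 14 had a probe set and 7 were tested (Itga2b, Itga3, Itga5, Itga9, Itgae, Itgax and Itgb6), with 0 lower and 0 higher, a median log2 difference of -0.17, and 1 gene, Itgae, at an unadjusted p under 0.05. Itga3, Itga5, Itgae, Itgax and Itgb6 were dim, which limits what a missing call can show. Itgb6, at 22.2 to 63.0, passed the filter through its Gata6-KO level alone. Itga5, the fibronectin receptor subunit, had 63.7 to 103 in Gata6-KO and 96.8 to 179 in Gata6-WT (log2 -0.63, adjusted p = 0.23). Its 2 other tested probe sets stood at -0.62 and -0.19. Itga9 had a log2 difference of -0.33 (adjusted p = 0.38). The 2 other tested Itga9 probe sets stood at 0.32 and 0.33.

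Among the genes that switch integrins on and link them to the cytoskeleton, 6 were lower and 5 higher of 34 tested, with a median log2 difference of -0.06. The shares over all tested genes were 7.46% lower and 5.61% higher. Talin-1, which binds beta tails, did not pass at its brightest probe set (Tln1, log2 -0.29, limma adjusted p = 0.27). Of its 2 other tested probe sets, at -0.65 and -0.49, 1 passed as lower. Kindlin-3, the partner of talin in blood cells, did not pass (Fermt3, log2 -0.09, adjusted p = 0.63). Parvb, a parvin that joins integrin-linked kinase to actin, averaged 1057 ± 173 in Gata6-KO and 4204 ± 1592 in Gata6-WT (SD, n = 3 each; log2 -1.92, limma adjusted p = 0.00078), while its second tested probe set stood at -0.16. Ptk2b, the focal adhesion kinase relative Pyk2, had a difference of -1.05 (adjusted p = 0.0033), with -0.39 at its second tested probe set, and with the mean of both the call was lost (log2 -0.72, adjusted p = 0.17). The adaptor Fyb was lower at its brighter probe set (-0.75, adjusted p = 0.0044) but stood at 0.062 at the other, and with the mean of both the call was lost (log2 -0.34, adjusted p = 0.093). The actin linker Vcl (-0.61, adjusted p = 0.0075) was lower too, and so was Tln2, the second talin (-1.03, adjusted p = 0.020), whose call was lost without Gata6-WT replicate 3 (adjusted p = 0.066). The sixth lower gene was Zyx.

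In the other direction, Lims2, a PINCH adaptor of integrin-linked kinase, averaged 746 ± 274 in Gata6-KO and 140 ± 94.8 in Gata6-WT (log2 2.39, limma adjusted p = 0.0042). Tns1, a tensin that binds beta tails, averaged 1237 ± 193 in Gata6-KO and 376 ± 108 in Gata6-WT (log2 1.70, adjusted p = 0.0010), with 2 more probe sets at 2.52 and 3.22. Skap2 (0.46), Rap1a (0.42) and Crk (0.42) also passed, but their calls were lost in 5, 3 and 4 of the 6 fits that leave out 1 array. The number of higher genes was 2 without Gata6-KO replicate 2 or Gata6-WT replicate 2, and 3 without Gata6-WT replicate 3.

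Of 20 tested integrin ligands and matrix genes, 6 were lower and 1 was higher, with a median log2 difference of -0.28. The shares over all tested genes were 7.46% lower and 5.61% higher. Ltbp1, which stores latent TGF-beta in the matrix, averaged 1326 ± 997 in Gata6-KO and 22828 ± 3035 in Gata6-WT (log2 -4.56, limma adjusted p = 0.0018). As with Itga6, Gata6-KO replicate 1 was its lowest array, and the fall was 23.6-fold with all arrays, 12.3-fold without that array and 35.8-fold without Gata6-KO replicate 2. Thbs1, a thrombospondin bound by Itgav integrins, averaged 4092 ± 780 in Gata6-KO and 26808 ± 4510 in Gata6-WT (log2 -2.71, adjusted p = 2.3e-05). Mfge8, which bridges apoptotic cells to Itgav integrins, averaged 523 ± 83.8 in Gata6-KO and 2282 ± 265 in Gata6-WT (log2 -2.10, adjusted p = 4.9e-05). Of 4 tested laminin chains, whose products form ligands of Itga6 integrins, Lama3 and Lamc1 were lower, while Lama5 (log2 0.46, adjusted p = 0.46) and Lamb2 (0.017, adjusted p = 0.98) did not pass. Lama5 had 73.1 to 146 in Gata6-KO and 43.8 to 85.0 in Gata6-WT, and Lamb2 66.2 to 83.1 and 62.6 to 86.1. Both were near the filter level, which limits what a missing call can show. Lama3 had a log2 difference of -1.82 (adjusted p = 0.0026), and Lamc1 averaged 164 ± 8.17 in Gata6-KO and 345 ± 41.2 in Gata6-WT (adjusted p = 0.0067). Icam2 was the sixth lower gene. Adam9, a membrane protease with an integrin-binding domain, averaged 7471 ± 674 in Gata6-KO and 4747 ± 266 in Gata6-WT (log2 0.65, adjusted p = 0.0049).

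Tetraspanins are membrane proteins that hold integrins in patches of the cell surface. Of 12 tested, 4 were lower and 3 higher, with a median log2 difference of 0.01, where 7.46% of all tested genes were lower and 5.61% higher. Cd81 averaged 1254 ± 695 in Gata6-KO and 10734 ± 694 in Gata6-WT (log2 -3.23, limma adjusted p = 0.00029), and Cd9 4854 ± 1608 in Gata6-KO and 24986 ± 2830 in Gata6-WT (log2 -2.41, adjusted p = 0.00012). Tspan4 (-1.24) and Cd82 (-0.96) were the other lower genes. Tspan32, Tspan3 and Tspan14 were higher (1.13, 0.61 and 0.45), but the number of higher tetraspanins was 1 without Gata6-KO replicate 1, Gata6-KO replicate 3 or Gata6-WT replicate 1 and 0 without Gata6-KO replicate 2. Cd151, a close partner of laminin-binding integrins, did not pass at its brightest probe set (log2 0.14, adjusted p = 0.51). Its 5 other tested probe sets ran from -0.05 to 1.22, and 0 of them passed as higher.

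**Figure D4:**
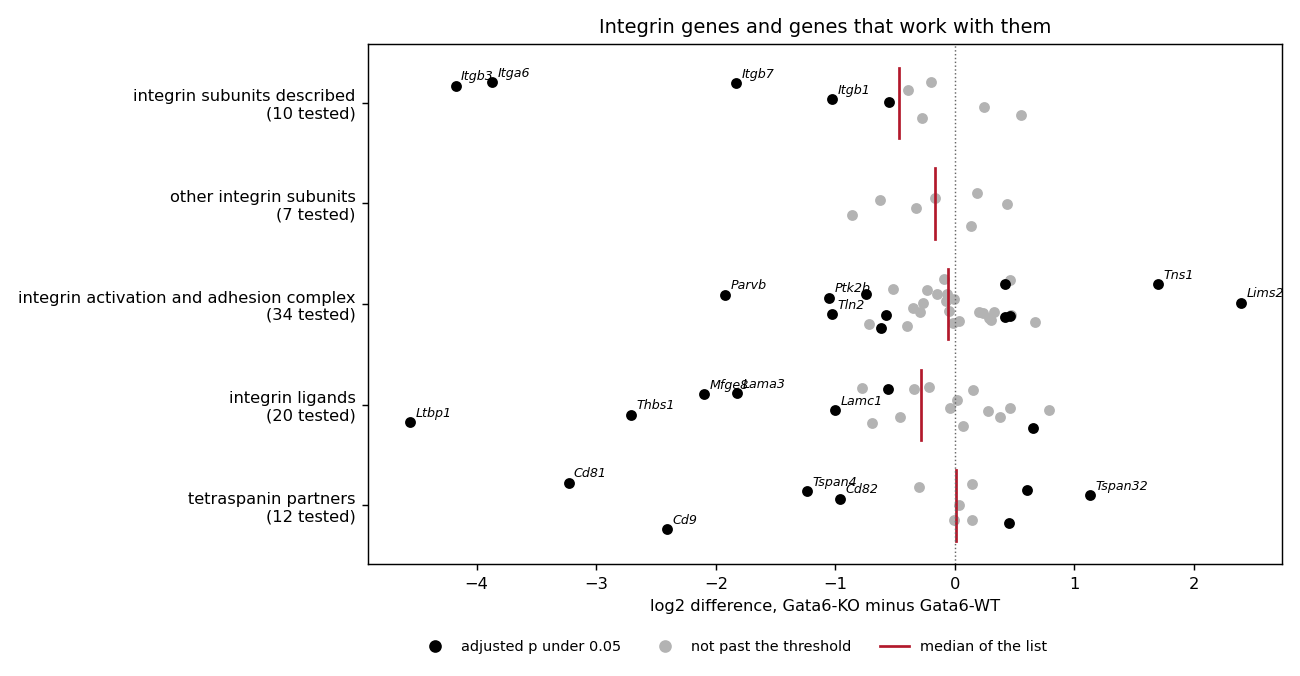
Log2 difference, Gata6-KO minus Gata6-WT, of each tested gene in the list of integrin genes and in the lists of other integrin subunits, activation and adhesion complex genes, ligands and tetraspanins, with genes past the threshold marked. The 10 integrin genes have a median of -0.47, the ligands -0.28 and the tetraspanins 0.01, with differences in both directions in the adhesion complex and tetraspanin lists.

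Genes whose pattern over the 6 arrays was most like that of an integrin were named by the root-mean-square difference of log2 values centred on the Gata6-WT mean, which is a description over genes that share the same arrays. This centring keeps the genotype difference, so the measure largely picks genes with a fall of similar size. The named genes lie far below the median because they were selected as the closest. For Itga6 these were Ipcef1 (0.17), Nt5e (0.25) and Vmn2r26 (0.30), where the median over all tested genes was 2.82. For Itgb3 they were Fabp4 (0.42), Ctse (0.44) and Tmem263 (0.58), with a median of 2.96. For Itgb7 they were Ldhb (0.12), F5 (0.14) and Atp2a3 (0.18), with a median of 1.32.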

How the data were processed

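The deposited values are linear probe set intensities, made by the authors with MAS5 and the affy package per the submitters' processing notes, which give no version here; total RNA was labelled with biotin per the labels' protocols. On each of the 6 arrays the mean of the 45101 probe sets, trimmed by 2% on each side, is 500. Of the probe sets, 34958 carry 1 gene symbol in GEO's platform annotation, 932 several and 9211 none, and only those with 1 symbol were named. The 64 control probe sets were left out, as were probe sets below the 40th percentile of mean log2 signal (5.99), which left 27022 probe sets and 12511 genes. log2(signal + 16) was fitted with limma 3.58.1 (R 4.3.3; lmFit, eBayes with trend) on 3 against 3 arrays, with Benjamini-Hochberg adjustment over all 27022, and the code was tested on simulated data. P-values measure the spread between pools of mice. The number of arrays limits the precision. A gene with several tested probe sets is represented by the brightest one on average.

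All probe sets of the 10 genes are reported, with up to 5 genes past the threshold in each direction per list by size, and, for Itga6, Itgb3 and Itgb7, the 3 genes with the most similar pattern; other genes (Zyx, Icam2, Itga5, Itga9, Tln1, Fermt3, Cd151) were named after their values were seen. The members and lists were chosen with earlier results of these data known. Alternatives covered the pseudocount, filter, normalization, trend, choice of probe set, sex type, replicate block and each array left out. Figures were drawn with matplotlib 3.10.9 (Python 3.11.15).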

Additional observations from a re-analysis of the deposited data

How the results depend on the processing

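Across 19 alternatives the number of integrin genes lower in Gata6-KO was 4 to 6, and the number higher was 0 in each. Of 94 refits of the 5 genes that passed, 91 kept direction and call, 3 lost the call (Itgb1 with the mean of its probe sets; Itgb2 with no trend and without Gata6-KO replicate 2) and 0 turned; Itgb3 was not tested at the 60th percentile filter. Among genes that had not passed, Itgav was 0.34 with the mean of its probe sets, Itgam -0.030 without Gata6-WT replicate 3 (range -0.030 to 0.41 with 1 array left out), and Itgal 0.078 in female-type arrays and 0.0021 without Gata6-KO replicate 1 (range -0.36 to 0.0021); the cause was not tested. The 2916 probe sets past the threshold became 1459 with no trend, 1615 with female-type arrays only, which are fewer arrays, and 1851 to 2465 with 1 array left out (1886 and 1851 when the array was Gata6-KO replicate 2 or 3, and 1879 when it was Gata6-WT replicate 2). Same-numbered samples correlated at 0.13, 0.074 and 0.074 after removal of group means, so the numbers were not taken as pairs, although each sample correlated best with its own number; with the replicate block 3076 probe sets passed and 5 integrin genes were lower. The balance of calls moved with the scaling: 1532 probe sets were lower and 1384 higher as reported, 1491 and 1481 with quantile normalization, 1708 and 1165 with median scaling, and 1256 and 1638 with median scaling over the tested probe sets, which was added after the data were seen. In the list of adhesion complex genes 3 were lower and 2 higher with no trend or female-type arrays only; of the tetraspanins 1 was higher with median scaling and 0 with no trend or female-type arrays only. Probe sets near the filter, and Itgb3 in Gata6-KO, are limited by their dim signal.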
